A study of Mus musculus with 4 samples.

Results

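The LIM homeobox genes encode transcription factors that join a DNA-binding homeodomain to a pair of LIM zinc fingers. The 10 genes described here were the Lhx and Isl members of the family, Lhx1, Lhx2, Lhx3, Lhx4, Lhx5, Lhx6, Lhx8, Lhx9, Isl1 and Isl2. They were taken by gene symbol from both deposited tables of annotated H3K27me3 peaks, together with every peak inside the gene or within 20 kb of it, and they are 10 of the 21938 protein-coding genes of the annotation. All 10 were found in both tables. H3K27me3 was profiled by CUT&RUN, in which an antibody tethers a nuclease to chromatin and the released fragments are sequenced, in erythro-myeloid progenitors (EMPs) of the mouse yolk sac at E10.5. There were 2 H3K27me3 libraries, from 500 EMPs and from 15000 EMPs, and 2 IgG libraries that are not analysed here. Mice of both groups were of strain C57BL/6, and all samples carry the genotype label Ezh2fl/fl; Tie2-Cre+/+ followed by the words wild type, so that they were read as wild type with floxed Ezh2 alleles. EMPs are defined in the study as KIT+CD41+CD16/32+ cells. The label gives no number of embryos behind a library.

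Each group had 1 library, so no difference between the cell numbers has a replicate check, and no test was made. Cell number also came with other changes. The 500-EMP library had 17 cycles of amplification, 76 bp reads and a MACS2 p-value threshold of 0.01, and the 15000-EMP library had 16 cycles, 59 bp reads from another instrument and a threshold of 0.05. Their parts in any difference cannot be told apart. The study's listing of the peak-calling commands names, under each cell number, the library of the other, and the lists were taken as labelled. Its methods give the same thresholds by cell number, and its text reports fewer peaks with 500 EMPs, as in these lists. The lists held 10223 peaks with 500 EMPs and 15282 with 15000 EMPs, with median widths of 363 and 770 bp, over 0.218% and 0.879% of the genome. They give positions without a score, so a base was either covered by a peak or not, and depth at a locus is unknown from them. None of 12 genes typical of EMPs, such as Kit, Runx1 and Gata1, carried a peak at its start, 3 kb being the limit, with either cell number (0 of 12, against 9.92% of all protein-coding genes with 500 EMPs and 17.0% with 15000 EMPs). One of them, Fcgr3, which encodes CD16, had peaks just past that limit, 4121 and 4057 bp from its start. Of 4 neural progenitor genes, 3 had a peak at the start with 500 EMPs and 4 with 15000 EMPs.

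H3K27me3 is placed by Polycomb repressive complex 2, whose catalytic subunit is Ezh2, and in vertebrates it typically spreads over developmental regulators that a cell lineage does not use. Most LIM homeobox factors act in neurons, the pituitary, the eye, the limbs, the heart or the pancreas. Through their LIM fingers they bind the adaptor Ldb1. In blood cells the same adaptor works with Lmo2, a LIM-only protein without a homeodomain, in the complex that contains Tal1 and Gata1.

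To show what lay under the peaks, 4 promoter windows are printed, each from 250 bases before to 50 bases after a RefSeq transcription start on GRCm38.p6. They were chosen, after their values were seen, to show windows under a peak in both libraries, in 1 of them and in neither. RefSeq held 13 such windows for 9 of the 10 genes, without one for Lhx5. Capitals mark every CG dinucleotide, the letters C then G, which read the same on both strands. Across all 32544 RefSeq windows the median was 7 CG, 43.8% held at least 10 and 26.7% held at least 20.
Lhx1 (chr11:84525485-84525784, minus strand, 31 CG, covered over all 300 bases in both libraries): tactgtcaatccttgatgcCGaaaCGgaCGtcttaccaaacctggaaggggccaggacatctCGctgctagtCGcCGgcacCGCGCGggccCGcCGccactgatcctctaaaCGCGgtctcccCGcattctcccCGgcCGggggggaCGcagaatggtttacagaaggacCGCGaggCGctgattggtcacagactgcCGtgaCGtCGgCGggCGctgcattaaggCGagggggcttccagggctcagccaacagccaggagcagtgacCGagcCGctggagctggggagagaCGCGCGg
Isl1 (chr13:116309639-116309938, minus strand, 37 CG, covered over 0 bases in either library): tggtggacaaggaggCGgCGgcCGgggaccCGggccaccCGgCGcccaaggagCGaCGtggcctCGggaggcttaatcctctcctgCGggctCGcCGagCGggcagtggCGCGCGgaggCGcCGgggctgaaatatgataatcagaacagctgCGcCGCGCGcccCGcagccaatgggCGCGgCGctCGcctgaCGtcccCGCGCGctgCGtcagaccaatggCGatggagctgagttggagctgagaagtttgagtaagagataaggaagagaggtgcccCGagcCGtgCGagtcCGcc
Lhx4 (chr1:155741978-155742277, minus strand, 19 CG, at a start inside the longer GENCODE gene, covered over all 300 bases in both libraries): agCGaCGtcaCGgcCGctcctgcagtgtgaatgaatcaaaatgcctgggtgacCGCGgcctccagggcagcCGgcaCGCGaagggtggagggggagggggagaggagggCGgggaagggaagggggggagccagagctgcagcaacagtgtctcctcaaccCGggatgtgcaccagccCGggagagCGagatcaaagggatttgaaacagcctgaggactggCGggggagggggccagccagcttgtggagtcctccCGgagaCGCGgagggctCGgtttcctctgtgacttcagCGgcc
Lhx8 (chr3:154330511-154330810, minus strand, 4 CG, covered over 0 bases with 500 EMPs and 300 with 15000 EMPs): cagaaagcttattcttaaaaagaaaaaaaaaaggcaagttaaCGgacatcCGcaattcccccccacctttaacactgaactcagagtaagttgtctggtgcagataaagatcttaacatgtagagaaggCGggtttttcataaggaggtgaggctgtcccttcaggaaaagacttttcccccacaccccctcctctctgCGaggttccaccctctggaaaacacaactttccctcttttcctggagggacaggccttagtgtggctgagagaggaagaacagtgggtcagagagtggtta
Over all 13 windows, 5 were touched by a 500-EMP peak and 11 by a 15000-EMP peak. The same share over all RefSeq windows was not computed, so these counts have no background beside them. The 11 held from 4 to 34 CG, and the 2 others were that of Isl1 with 37 and one of Lhx3 with 13, so the CG number did not separate covered from uncovered windows.

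A peak lay at most 3 kb from the GENCODE start of all 10 genes in both libraries. With peaks of at least 500 bp only, the count with 500 EMPs was 8, since the peaks near the starts of Lhx4 and Isl1 measured 317 and 319 bp. Of all protein-coding genes, 9.92% had one with 500 EMPs and 17.0% with 15000 EMPs. Within 1 kb of the start, 10 of 10 genes had a peak with 15000 EMPs (15.2% of all genes) and 7 of 10 with 500 EMPs (7.39% of all genes), the others being Lhx3, Lhx4 and Isl1. A 500-EMP peak lay over the start base itself at 3 genes, Lhx1, Lhx5 and Lhx9, against 1.40% of all genes. A 15000-EMP peak did so at 6, Lhx1, Lhx2, Lhx4, Lhx6, Lhx8 and Isl2, against 8.63%. Of the 46 annotated transcript starts of the 10 genes, 14 lay under a 500-EMP peak and 37 under a 15000-EMP peak. Of the 93513 transcript starts of all protein-coding genes, 0.916% and 6.18% did.

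The length covered set the genes apart from each other more than the presence of a peak did. In the window of 3 kb on each side of the start, 6001 bp in all, the covered share had a median of 43.0% over the 10 genes with 500 EMPs and 77.1% with 15000 EMPs. Among all protein-coding genes with a peak within 3 kb the medians were 13.1% and 45.7%. The 9 Pax genes, another family of developmental regulators, had medians of 46.4% and 95.7%. A peak lay within 3 kb at 8 of them with 500 EMPs and at all 9 with 15000 EMPs. With 500 EMPs the share of the members ran from 4.05% at Lhx3 to 77.5% at Lhx6, and with 15000 EMPs from 42.9% at Lhx3 to 100% at Lhx1, Lhx2 and Lhx6. A wholly covered window was found at 0.634% of all genes with 15000 EMPs, and at 3 of the 9 Pax genes. With 500 EMPs no member had one, and 0.0182% of all genes did.

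**Figure D1:**
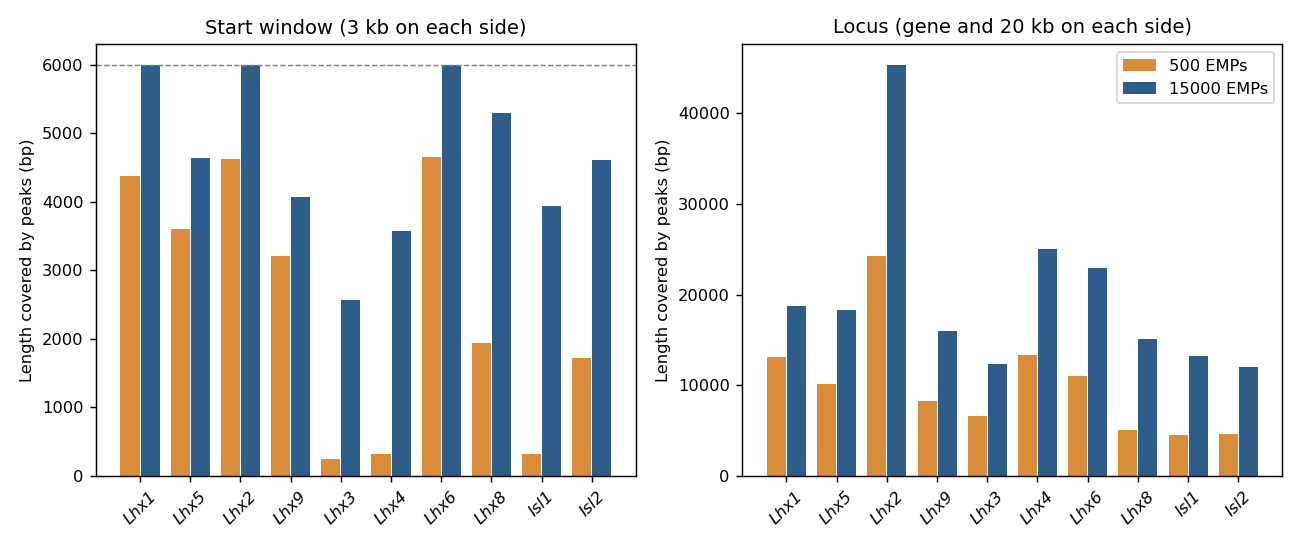
Length covered by H3K27me3 peaks (bp, linear axis from 0) at each of the 10 LIM homeobox genes, in the window of 3 kb on each side of the start (left, dashed line at the full 6001 bp) and in the gene with 20 kb on each side (right). Orange bars are the single 500-EMP library and blue bars the single 15000-EMP library, without error bars because there are no replicates. The blue bar was the longer at every gene, and Lhx2 had the longest bars of the right panel, 24319 and 45393 bp.

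In the gene with 20 kb on each side, called the locus here, the 10 loci made up 599094 bp. Peaks covered 101140 bp of them with 500 EMPs (16.9%) and 199232 bp with 15000 EMPs (33.3%). The 500-EMP list placed 109 peaks there and the 15000-EMP list 58, hence the library with more covered bases had fewer peaks. Single peaks over 5 kb numbered 13 among the 58 (22.4%, against 5.73% of the whole 15000-EMP list) and 0 among the 109 (0.293% of the whole 500-EMP list). In each list, 4 of the 100 widest peaks of the genome lay in these loci, which held 1.07% of all 500-EMP peaks and 0.380% of all 15000-EMP peaks.

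**Figure D2:**
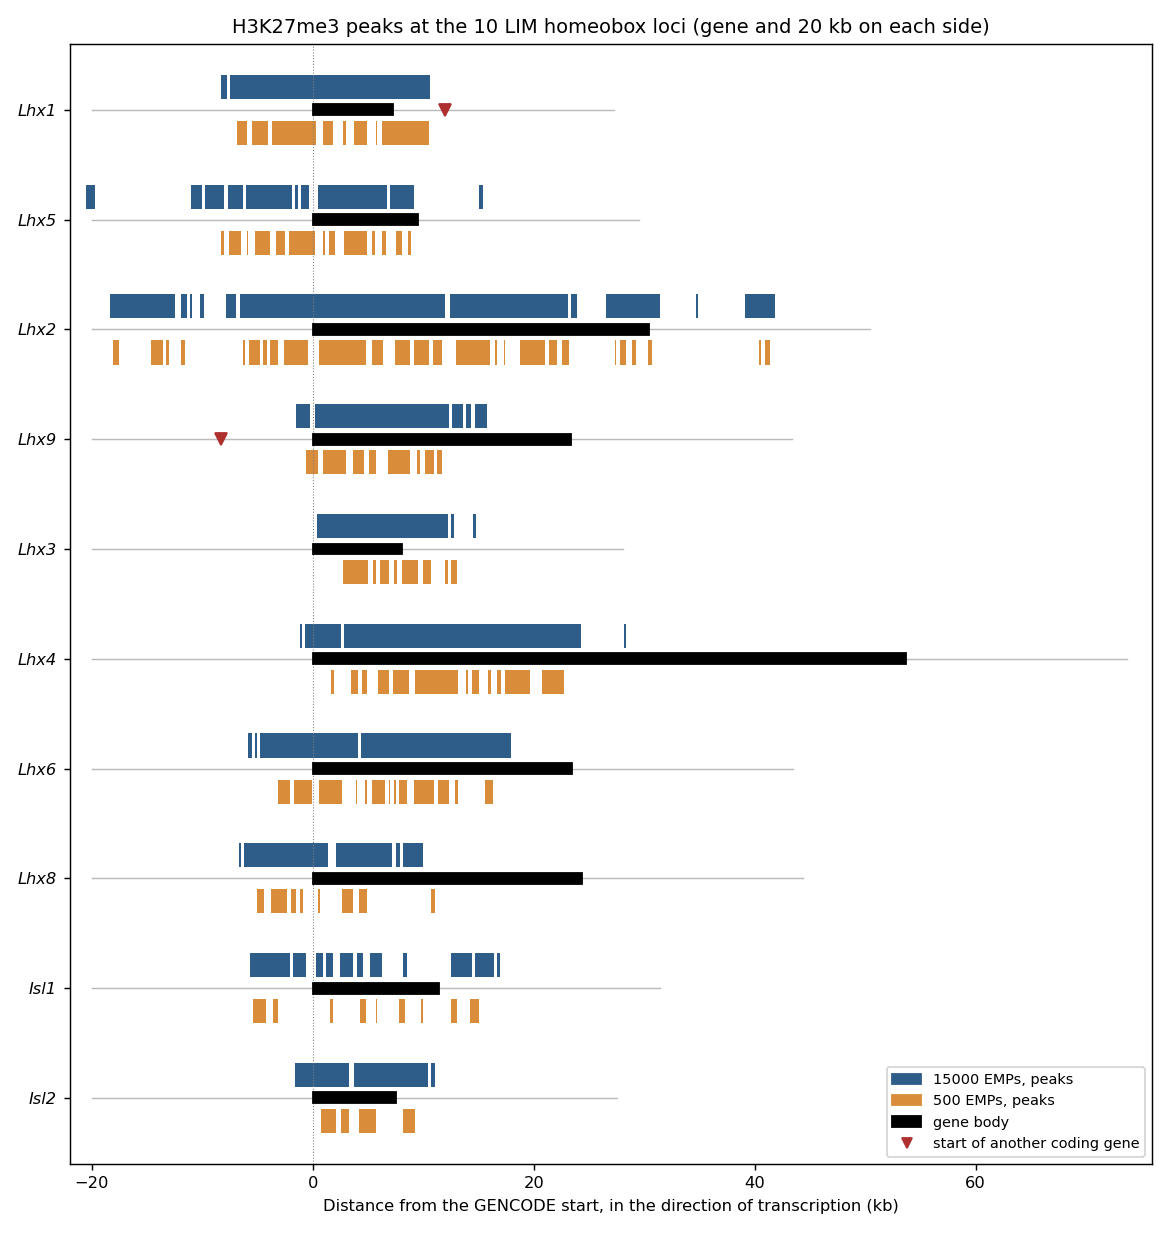
Peaks at the 10 loci, drawn to scale by distance from the GENCODE start in the direction of transcription (kb). Blue blocks are 15000-EMP peaks, orange blocks 500-EMP peaks, black bars the gene body, and red triangles the start of another protein-coding gene. Long blue peaks break up into several orange ones, as at Lhx1, where 1 peak of 18148 bp held 8 peaks of the 500-EMP list.

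Of the 109 peaks of the 500-EMP list in the loci, 107 shared 1 bp or more with a 15000-EMP peak (98.2%, 95% Wilson interval 93.6% to 99.5%, counting error only). Many of these peaks lay together in a single 15000-EMP peak, as 8 did at Lhx1. They are not independent, so the interval can be too narrow. For the whole list the share was 91.2%. The 2 others were a peak of 391 bp at Lhx8 and one of 137 bp at Isl1, the narrowest width in the list. In the other direction 33 of 58 overlapped (56.9%, 44.1% to 68.8%, against 32.2% for the whole list). The 25 15000-EMP peaks without a partner were narrow, with a median of 417 bp and 21 of them under 1 kb. All 13 peaks over 5 kb had a partner.

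Lhx1 and Lhx5 are paralogs that act in the early head organizer and in the forebrain, and Lhx1 also in the kidney. At Lhx1 (chromosome 11, 84518284 to 84525535, minus strand) peaks covered 13153 bp of the locus with 500 EMPs and 18726 bp with 15000 EMPs, the smallest gain of the family at 1.42 times. Its widest 15000-EMP peak ran from -7481 to 10666 bp relative to the start and covered 100% of the gene body, exons and introns. It ranked 28 by width among all peaks of that list. The peak ended 1347 bp before the start of Aatf, an apoptosis-related gene transcribed from the same strand at 12013 bp, and neither library had a peak over the Aatf start. The nearest 500-EMP peak stopped at nearly the same place, 1439 bp away.

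Lhx5 (chromosome 5, 120431699 to 120441223, plus strand) differed from Lhx1 in being broken into many peaks, 13 with 500 EMPs and 10 with 15000 EMPs. They covered 10133 and 18372 bp of the locus. The widest 15000-EMP peak measured 6207 bp and began 503 bp past the start. Lhx5 was also the gene to which the authors' tables gave the most distant peaks. Beyond 20 kb lay 7 of its 20 rows with 500 EMPs and 14 of its 24 rows with 15000 EMPs, the farthest at 132881 and 145004 bp. For all other members together there were 2 such rows with 500 EMPs and 5 with 15000 EMPs.

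Lhx2, required for the eye, the forebrain and red cell formation in the fetal liver, and Lhx9, required for the gonad, form the next pair. Lhx2 (chromosome 2, 38339281 to 38369733, plus strand) had the most covered bases of the 10 genes, 24319 bp in 26 peaks with 500 EMPs and 45393 bp in 11 peaks with 15000 EMPs. A 15000-EMP peak of 18576 bp spanned the start from -6604 to 11971 bp and held 10 peaks of the 500-EMP list. A further one of 10629 bp followed inside the gene, and one of 5857 bp lay upstream from -18330 to -12474 bp. Lhx9 (chromosome 1, 138825186 to 138848577, minus strand) had most of its covered bases downstream of the GENCODE start. From the GENCODE start, its upstream 20 kb held 621 bp under peaks with 500 EMPs and 1274 bp with 15000 EMPs, and its downstream 20 kb held 7622 and 14759 bp. From the RefSeq start the side turned with 500 EMPs, at 4865 bp upstream and 3379 bp downstream, and the values were 7204 and 8828 bp with 15000 EMPs. The protein-coding gene 2310009B15Rik starts at -8275 bp from Lhx9, and the nearest peak to that start was 7654 bp away with 500 EMPs and 6775 bp with 15000 EMPs.

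Lhx3 and Lhx4 act together in the pituitary and in motor neurons. Both had little or no coverage upstream of the GENCODE start. At Lhx3 (chromosome 2, 26200212 to 26208289, minus strand) peaks covered 0 bp of the 20 kb upstream of the start in both libraries, whereas a 15000-EMP peak of 11805 bp began at 427 bp and ran on past the gene end to 12231 bp. It held 7 of the 8 peaks of the 500-EMP list. With 500 EMPs the first peak began only at 2758 bp. At Lhx4 (chromosome 1, 155698031 to 155751684, minus strand) a 15000-EMP peak of 21482 bp lay inside the gene from 2837 to 24318 bp and held 11 peaks of the 500-EMP list. It was the widest peak of the family and ranked 15 in the whole list. The RefSeq start printed above lies within it, 9657 bp downstream of the GENCODE start, and also within the widest 500-EMP peak of the gene, 3854 bp long. Upstream of the GENCODE start Lhx4 had 0 bp under peaks with 500 EMPs and 880 bp with 15000 EMPs. Upstream of its RefSeq start it had 4144 and 10227 bp.

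Lhx6 and Lhx8 specify neurons of the ventral forebrain, Lhx6 cortical interneurons and Lhx8 cholinergic neurons. At Lhx6 (chromosome 2, 36081953 to 36105408, minus strand) a 15000-EMP peak of 8832 bp crossed the start, from -4718 to 4113 bp, and one of 13589 bp followed 244 bp further into the gene. In all, peaks covered 11031 bp of the locus with 500 EMPs and 22948 bp with 15000 EMPs. At Lhx8 (chromosome 3, 154306294 to 154330659, minus strand) the values were 5068 and 15101 bp, the largest gain of the family at 2.98 times. Of the 8 Lhx8 peaks with 500 EMPs, the widest measured 1366 bp.

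Isl1, used in motor neurons, the second heart field and the pancreatic islets, and Isl2, used in motor neurons and retinal ganglion cells, had the fewest covered bases in the locus with 500 EMPs. At Isl1 (chromosome 13, 116298281 to 116309689, minus strand) peaks covered 4539 bp of the locus with 500 EMPs and 13214 bp with 15000 EMPs. Isl1 was the only one of the 10 genes with more peaks in the 15000-EMP list, 11 against 9, and the only one without a peak over 5 kb, its widest being 3613 bp. At Isl2 (chromosome 9, 55538672 to 55546180, plus strand) 4 peaks covered 4683 bp with 500 EMPs and 3 covered 11975 bp with 15000 EMPs. Its start lay 795 bp from the nearest 500-EMP peak and under a 15000-EMP peak of 4894 bp.

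Coverage was not even on the 2 sides of the start. Over 20 kb upstream the mean covered share of the 10 genes was 13.0% with 500 EMPs and 26.1% with 15000 EMPs, and over 20 kb downstream, in the direction of the gene, it was 34.4% and 65.5%. More bases were covered downstream at 8 of 10 genes with 500 EMPs, all but Lhx5 and Lhx8, and at 9 of 10 with 15000 EMPs, all but Lhx5. Among all protein-coding genes with a peak within 3 kb the share with more downstream was 61.9% and 68.9%, so the count over 10 genes stands not far from the common pattern. The mean shares of those genes were 5.90% upstream and 7.76% downstream with 500 EMPs, and 12.0% and 16.7% with 15000 EMPs. The 9 Pax genes, developmental regulators with a paired box, had 27.8% upstream and 30.1% downstream with 500 EMPs, and 54.5% and 58.7% with 15000 EMPs. The difference between the families was not tested. The choice of start mattered for the size. From the most upstream RefSeq start, which lies downstream of the GENCODE start by 9657 bp at Lhx4, 6133 bp at Lhx9 and 2477 bp at Isl2, the shares became 17.9% upstream and 30.5% downstream with 500 EMPs, and 35.1% and 58.8% with 15000 EMPs. Lhx5, without a RefSeq window, kept its GENCODE start in these values. Counted from there, 7 of 10 genes had more downstream with 500 EMPs, Lhx9 joining Lhx5 and Lhx8, and 9 of 10 with 15000 EMPs.

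**Figure D3:**
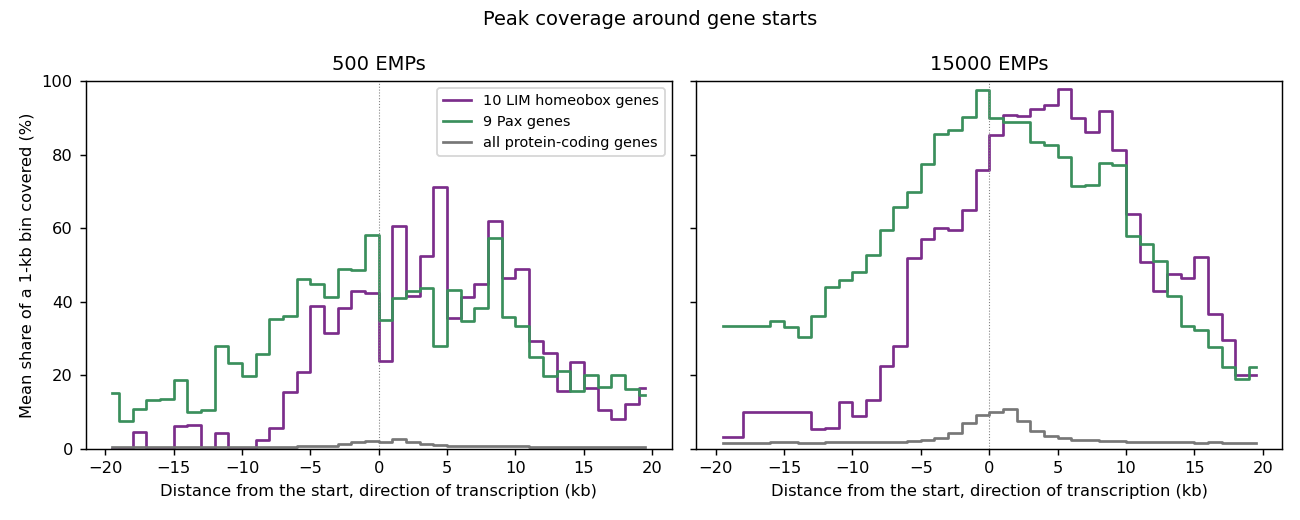
Mean share of each 1-kb bin covered by peaks (%), within 20 kb of the GENCODE start, for the 10 LIM homeobox genes (purple), the 9 Pax genes (green) and all protein-coding genes (grey), with 500 EMPs on the left and 15000 EMPs on the right. The purple line was highest 5 to 6 kb downstream with 15000 EMPs, at 97.7%, whereas the green line was highest in the 1 kb before the start, at 97.5%.

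Several starts lay in a gap between covered stretches. With 15000 EMPs this was so at Lhx5, where bases from -327 to 502 were uncovered (830 bp), at Lhx9, where the gap ran from -226 to 202 (429 bp), and at Isl1, where it ran from -579 to 306 (886 bp). Peaks flanked each of these gaps on both sides. The 500-EMP list covered 526 of the 830 bp at Lhx5 and all 429 bp at Lhx9, but 0 of the 886 bp at Isl1. The 500-EMP list itself had gaps over the start at Lhx2 (987 bp), Lhx6 (665 bp) and Lhx8 (1342 bp), and all of their bases lay under 15000-EMP peaks. Isl1 was thus the one gene of the 10 with a peak within 20 kb on each side of the start in both lists and the start base covered in neither. Its gap with 500 EMPs measured 4660 bp.

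**Figure D4:**
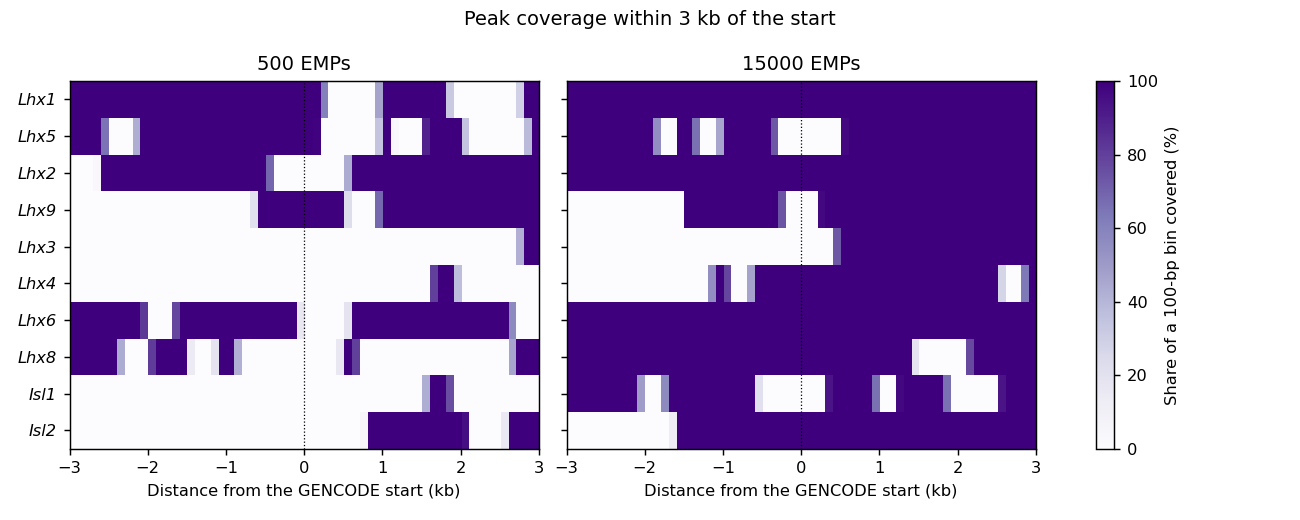
Share of each 100-bp bin covered by peaks (%, white 0 and dark purple 100) within 3 kb of the GENCODE start, 1 row per gene, with 500 EMPs on the left and 15000 EMPs on the right. The dotted line marks the start, and white bins cross it at Lhx5, Lhx9, Lhx3 and Isl1 with 15000 EMPs.

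The covered bases were the richer in CG. The CG ratio, the number of CG over the number that the C and G content alone would give, was computed for the bases of each locus under 15000-EMP peaks and outside them. It was higher under peaks at all 10 genes, from 0.317 at Lhx2 to 0.527 at Isl2 under peaks, and from 0.163 at Lhx3 to 0.264 at Lhx9 outside them. Set beside the bases of the whole locus, the gaps at the start did not follow this order. Their ratio was 0.806 at Lhx5, 0.622 at Lhx9 and 0.880 at Isl1, above the covered bases of the same loci, which had 0.449, 0.375 and 0.356. The gaps of the 500-EMP list had 0.703 at Lhx2, 0.712 at Lhx6 and 0.574 at Lhx8, and lay wholly under 15000-EMP peaks. A high ratio was not particular to gaps. In the 1 kb centred on a start under a 15000-EMP peak it was 0.840 at Lhx1, 0.689 at Lhx2, 0.654 at Lhx6 and 0.610 at Lhx8. At the covered starts of Lhx4 and Isl2 it was 0.0883 and 0.144. GC content was also high in most gaps. It was 59.9%, 62.5% and 66.0% in the gaps of Lhx5, Lhx9 and Isl1, and 72.2% in that of Lhx2, against 53.3%, 48.4%, 44.3% and 48.8% under the 15000-EMP peaks of these loci. The exception was the Lhx8 gap, whose GC content lay just below the 46.6% of the covered bases there. A part of GC-dependent amplification or of nucleosome-free DNA in the gaps was not tested. Peaks were more frequent at starts with a high ratio, though most such starts had none. Of the 9361 protein-coding genes whose 1 kb around the start had a ratio at or above the median of the 10 members, 0.632, 12.9% had a peak within 3 kb with 500 EMPs and 20.5% with 15000 EMPs. Below that ratio the shares were 7.70% and 14.4% of 12577 genes.

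**Figure D5:**
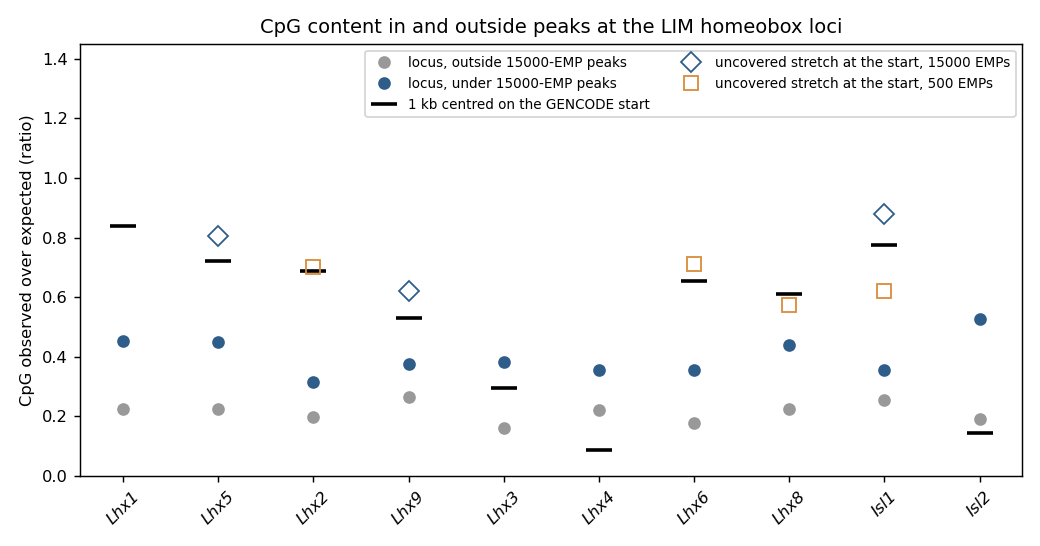
CG ratio (observed over expected, linear axis from 0) at each LIM homeobox locus. Grey dots are bases outside and blue dots bases under 15000-EMP peaks, black dashes the 1 kb centred on the start, and open symbols the uncovered stretches across the start that are shorter than 5 kb (blue diamonds 15000 EMPs, orange squares 500 EMPs). The blue dot lay above the grey dot at all 10 loci, and the open diamonds lay above the blue dots at Lhx5, Lhx9 and Isl1.

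Noncoding RNA genes start close to many of these genes. Within 3 kb of the start there was 1 at 5 of the 10 members, Lhx1os at Lhx1, Gm27199 at Lhx5, Gm27196 at Lhx3, AI606473 at Lhx8 and Gm17226 at Isl2, against 9.23% of all protein-coding genes. All 5 are on the opposite strand. With 15000 EMPs the starts of 4 of them were covered, the exception being Gm27199, 68 bp from the Lhx5 start and in the same gap. With 500 EMPs, Lhx1os and Gm27199 were covered. Of the farther starts in the loci, those of Gm27197 at Lhx2 and Gm27953 at Lhx6 lay under a 15000-EMP peak, whereas Gm13584 at Lhx2, Gm13553 at Lhx3, Gm37089 at Lhx4, Gm43764 at Lhx6 and Gm23407 at Isl2 lay under none in either library. The shared position affects the authors' annotation, which assigned some peaks at Lhx1 and Lhx8 to Lhx1os, AI606473 or the coding gene Aatf as well as, or in place of, the LIM homeobox gene. At Lhx1, 5 of the rows with 500 EMPs and 1 with 15000 EMPs carried its own symbol, for 8 and 2 peaks of the locus. The widest 500-EMP peak there, 4341 bp, was given to Aatf alone.

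Other genes of the LIM pathway were compared as a list. The list of 12 held the related LIM homeobox genes Lmx1a and Lmx1b, the LIM-only genes Lmo1, Lmo2, Lmo3 and Lmo4, the adaptors Ldb1 and Ldb2, their partners Ssbp2, Ssbp3 and Ssbp4, and Rlim, a ubiquitin ligase of the adaptors. Within 3 kb of the start, 2 of 12 had a peak with 500 EMPs (16.7%, against 9.92% of all protein-coding genes) and 3 of 12 with 15000 EMPs (25%, against 17.0%). Without the homeobox genes Lmx1a and Lmx1b the counts were 0 of 10 and 1 of 10, near the share over all genes. Lmx1a and Lmx1b had one in both. Lmx1a had 6973 bp of its locus covered with 500 EMPs and 18459 bp with 15000 EMPs. Lmx1b had 27405 and 52582 bp, more in bp than any member. As a share of its locus, Lmx1b had 22.9% and 44.0%, below the 34.5% and 64.4% of Lhx2. Lmo1 had 0 bp with 500 EMPs, and with 15000 EMPs 2518 bp of its locus were covered, the nearest peak being 70 bp from the start. At Lmo3 the start window was free of peaks, with 157 and 3614 bp elsewhere in the locus. In the 8 others, Ldb1, Ldb2, Lmo2, Lmo4, Rlim, Ssbp2, Ssbp3 and Ssbp4, neither library had a peak in the gene or within 20 kb. The CG ratio around the start of these 8 ran from 0.165 at Lmo2 to 0.898 at Lmo4, and that of the members from 0.0883 at Lhx4 to 0.840 at Lhx1.

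Apart from the members, the genes whose pattern was most like the mean of the 10 members were Fezf2, Tlx3, Bsx, Pax1 and Sox21. Likeness was the Euclidean distance over 80 values, the covered fraction of 40 bins of 1 kb around the start in 2 libraries. It was 2.03 for Fezf2, 2.11 for Tlx3, 2.14 for Bsx, 2.15 for Pax1 and 2.15 for Sox21. The members themselves stood farther from their own mean, from 2.2 at Lhx9 to 3.92 at Lhx2. Fezf2, a zinc finger gene of forebrain neurons, had 7949 bp of its locus covered with 500 EMPs and 18763 bp with 15000 EMPs.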

How the data were processed

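CUT&RUN libraries of 500 and 15000 EMPs were grouped by their labels. The authors aligned reads to mm10 with Bowtie2 2.2.1, called broad peaks per H3K27me3 library with MACS2 2.1.2 against IgG and annotated them with ChIPpeakAnno. The deposited lists hold peak positions in bp, and the deposited tables add gene symbols and distances, with no score, count or signal. The depth at a locus and the precision it gives are therefore unknown. The study states only a total depth for each cell number, lower with 500 EMPs. Ends were taken from the lists, since those of the tables lie 1 bp above. The genome used, GRCm38.p6, is mm10, and 0 peaks ran past a chromosome end.

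Coverage, overlap (at least 1 bp) and distance to GENCODE vM21 gene starts were computed with Python 3.11.15, numpy 2.4.6, pandas 2.3.3 and pysam 0.24.0, and were tested on simulated intervals. Peaks were not filtered. Gene starts were compared over protein-coding genes of chromosomes 1 to 19, X and Y. With 1 library per group no test was made. Named were the 10 members, the LIM pathway list, genes starting within 20 kb of a member, and the 5 genes most alike in coverage. Marker lists of EMPs and neural progenitors and the Pax genes were used for comparison, and Kit, Runx1, Gata1 and Fcgr3 were named from them after their values were seen. A further comparison list is not reported here. The members and lists were chosen with earlier results of these data known. Alternatives covered the distance limits, the choice of start, the joining of peaks, peak width and overlap. One motif besides CG was searched, TAATTA, which reads the same on both strands. It was in 0 of the 13 member windows and in 5.29% of all promoter windows.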

Additional observations from a re-analysis of the deposited data

How the results depend on the processing

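Of 50 alternatives over 12 results, 41 left the value close to the main one, that is within 1.5 times for counts and sizes and inside the Wilson interval for overlaps, and 9 moved it. None reversed a result. Joining peaks within 3 kb raised the median covered share of the start window with 500 EMPs from 43.0% to 80.2% and the median covered length of the locus from 9188.5 to 16452 bp, close to the 17202.5 bp of the 15000-EMP list as deposited. The overlap shares depended most on the rule. Of the 500-EMP peaks in the loci, 98.2% overlapped by at least 1 bp, 93.3% after joining within 3 kb, and 2.75% when 50% of both peaks had to be shared. Of the 15000-EMP peaks, the main value of 56.9% became 25.9% when 50% of the peak had to be shared, 5.17% when 50% of both had to be, 70.7% when a peak within 1 kb counted, 80% after joining within 1 kb and 81.3% after joining within 3 kb. The RefSeq start and the means without Lhx2 were added after seeing the data. Both kept more coverage downstream than upstream. Without Lhx2 the 500-EMP means were 10.9% upstream and 30.7% downstream.

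No paired analysis was possible because each group held 1 library and the result comes from no test. For the same reason no library was left out. The lists carry no score, so no stricter threshold was set, and peaks of at least 500 bp took its place. A gap between peaks is a stretch that was not called, which without the depth at that place does not show that the mark was absent.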
